A study of Arabidopsis thaliana with 8 samples.

Results

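The transcriptome described here is that of wild-type (WT) endosperm from a cross of a Ler female with a Col-0 male, Ler and Col-0 being 2 inbred accessions of Arabidopsis thaliana, dissected 7 days after pollination. Its members were chosen by genotype: 2 of the 8 samples of the series are WT, beside 3 mat nrpd1+/- samples (Ler nrpd1-/- female, Col-0 male) and 3 nrpd1-/- samples (both parents nrpd1-/-). NRPD1 is the largest subunit of RNA polymerase IV, and in the Ler parent the Col-0 allele nrpd1a-4 had been brought in by repeated crossing, whereas the WT parents carried no mutation. Endosperm was freed by hand from embryo and seed coat, seeds of several individuals were combined in each sample, and no agent was applied.

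The deposited tables give WT as a single pooled value per gene and table, in FPKM (fragments per kilobase of transcript, scaled to the mapped fragments). WT-n denotes the WT value deposited beside nrpd1-/-, and WT-m the WT value deposited beside mat nrpd1+/-. Neither value carries a spread between replicates and the tables were scaled separately, so everything below is a description of 2 values, with no test, no error and no claim beyond these libraries. Among single-exon genes over 1500 bp, the lowest values above 0 were multiplied by transcript length. They lay at 2 steps in WT-n (31.6 and 37.8 FPKM times bp) and at 3 steps in WT-m (8.22, 13.0 and 17.2). Each step was read as what 1 read of 1 library adds. The windows around these steps were set after looking at the values and held 97.2% and 98.2% of the values up to the last step. WT-n thus shows as many steps as there are WT samples here, and WT-m shows 1 more. But 2 reads of the library with the lowest WT-m step would lie close to the third step. The steps therefore do not settle how many libraries entered WT-m. Which libraries entered each value is not stated, so it cannot be told whether WT-m holds either of the 2 WT samples. Taking each step as 1 read of 1 library, a 1500-bp gene at 1 FPKM stood on about 43.6 reads in WT-n and 128 in WT-m. On that reading the counting error was 15.2% and 8.82%.

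Endosperm is the second product of double fertilization in flowering plants. It feeds and signals to the embryo, first grows as a syncytium, then forms cell walls, and in Arabidopsis is largely consumed by the embryo before the seed dries. It imports sugars and amino acids from the seed coat, makes oil and storage protein, and expresses many small secreted cysteine-rich peptides.

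Of 37329 genes, 16037 were at 1 FPKM or more in both WT values, 894 in WT-n alone and 1555 in WT-m alone. Among the 27443 nuclear protein-coding genes, 15133 (55.1%) were at 1 FPKM or more in both. Across 15953 nuclear genes at 1 FPKM or more in both values, the log2 levels gave Pearson's r = 0.86 and Spearman's rho = 0.86. These are correlations across genes, which are not independent replicates and which share their length between the 2 values. The 10 highest nuclear genes held 22.3% of nuclear FPKM in WT-n and 7.43% in WT-m. In WT-n, 16.9% came from AT5G38160, AT5G38170 and LCR69, which WT-m lists at 0 because they were masked for too many fragments. Shares of nuclear FPKM given for gene lists below are over each column's own total, which lacks its masked genes. The totals of different columns therefore do not rest on the same genes. Without the genes masked in either value the 10 highest held 7.89% in WT-n and 7.43% in WT-m, and the 100 highest 24.4% and 26.3%. At 1000 FPKM or more stood 57 nuclear genes in WT-n and 185 in WT-m. The WT value of the table for pat nrpd1+/- was the WT-m value on another scale: over 17243 genes their log2 ratio had an SD of 0.0061, so it adds no further WT measurement.

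The marker lists were checked against the label. Of 9 endosperm regulators, 6 were at 1 FPKM or more in both values. RGE1 (ZHOUPI), a bHLH factor that acts in endosperm breakdown, was at 67.4 FPKM in WT-n and 56.8 in WT-m. Its partner ICE1 was at 702 and 966 FPKM, and ALE1, a subtilase that endosperm supplies for embryo cuticle formation, at 98.1 and 61.9 FPKM. AT1G50650, a Stig1 family peptide gene, was at 1058 and 2072 FPKM, and the imprinted homeobox gene HDG3 at 9.93 and 31.7 FPKM. Markers of the early syncytial phase were near 0: AGL62 was at 0.0382 FPKM in WT-n and 0.112 in WT-m. WRKY10 (MINI3) was listed at 0 in both, and IKU2 was under 1 FPKM in both. FWA and MEA, not counted as markers of that phase, were under 1 FPKM in both as well. Of 17 type I MADS-box genes, the family of early endosperm factors, 1 (AGL80, at 4.03 and 5.79 FPKM) reached 1 FPKM in both. Of 15 embryo markers, 2 did: CUC1 at 27.0 and 31.4 FPKM and ATML1 at 11.2 and 2.59. Among the embryo patterning genes, WOX2 was at 0.237 and 1.23 FPKM and STM at 0.224 and 1.76. Of 16 seed coat markers, 12 were at 1 FPKM or more in both, their sum being 0.0542% of nuclear FPKM in WT-n and 0.0382% in WT-m. The 9 endosperm regulators summed to 0.244% and 0.275%, of which ICE1 and AT1G50650 gave 0.220% and 0.262%. The other 7 summed to less than the seed coat markers, at 0.0237% and 0.0137%. That comparison drops the 2 highest endosperm genes but keeps all 16 seed coat markers, so it does not weigh one tissue against the other. The seed coat laccase gene TT10 was at 101.3 and 53.6 FPKM. The part of seed coat RNA in the results below was not tested. The paper reports that a tissue enrichment test of its libraries gave no sign of contamination by seed coat.

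Of the 100 highest nuclear genes of each value, 37 were shared, which is 37% of each list, and for the 500 highest the share was 59.4%. Of these 37 genes, 5 were photosystem and antenna genes, 4 defensin-like, 3 early nodulin-like, 2 lipid transfer protein, 2 oil body and 1 fatty acid synthesis genes, and 20 belonged to none of the classes counted. The lists differ in their make-up. Ribosomal protein genes made up 16 of the 100 highest genes of WT-m and 1 of WT-n, defensin-like genes 12 and 5, storage protein genes 0 and 5, oil body genes 2 and 5, and genes that are not protein-coding 6 and 15. These counts leave out 8 genes at which 1 of the tables lists WT at 0 with the status Cuffdiff gives to loci with too many fragments, since such a 0 is a masked value and not an absence.

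**Figure D1:**
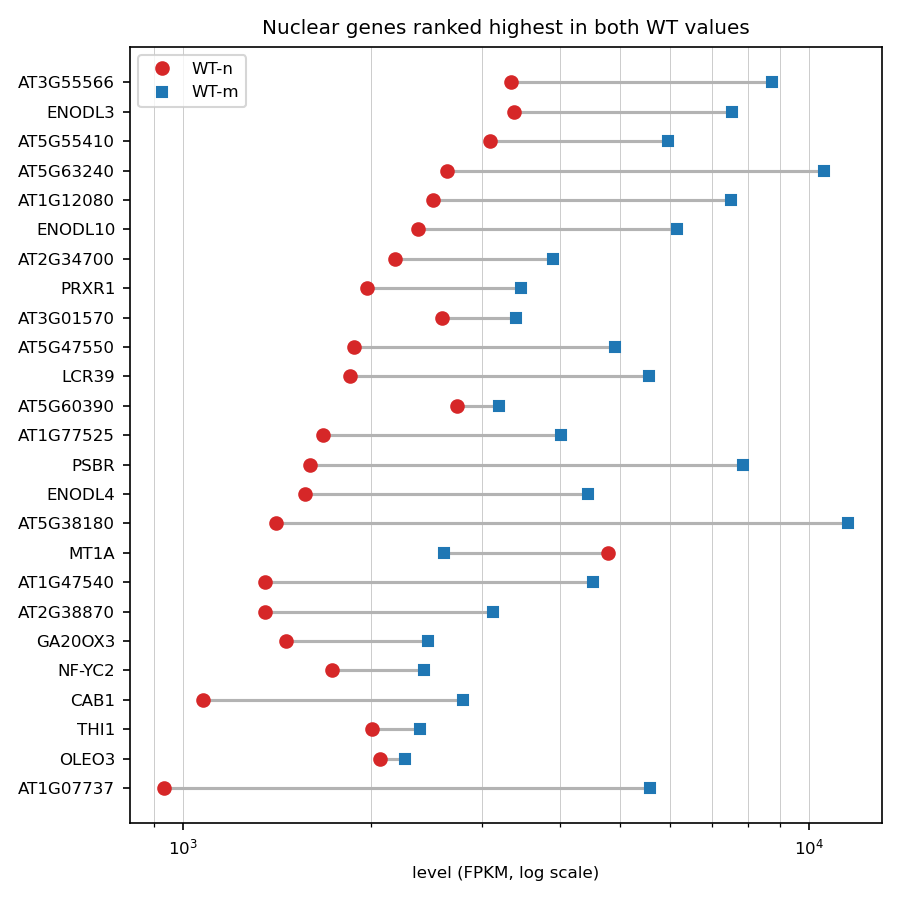
The 25 nuclear genes with the best worst rank over both WT values, from the highest at the top, with FPKM on a log axis, circles for WT-n and squares for WT-m. WT-m was the higher value for 24 of the 25, MT1A being the exception.

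The gene with the best worst rank was AT3G55566, an uncharacterized gene described further below. Next came ENODL3, an early nodulin-like (phytocyanin) protein, ranked 5 in WT-n (3375 FPKM) and 6 in WT-m (7542 FPKM). Its relatives ENODL10 (2373 and 6150 FPKM) and ENODL4 (1567 and 4444 FPKM) were ranked 17 and 33 in WT-n and 8 and 16 in WT-m. AT5G63240, with a carbohydrate-binding X8 domain, was at 2641 and 10563 FPKM, AT2G34700, of the Pollen Ole e 1 and extensin family, at 2183 and 3904 FPKM, and the peroxidase gene PRXR1 at 1966 and 3465 FPKM. AT1G12080, encoding a vacuolar calcium-binding-like protein, was at 2513 and 7500 FPKM, and AT1G07737, the one gene of the 25 that is not protein-coding, at 933 and 5569 FPKM. EPR1, an extensin-like proline-rich protein gene of the endosperm, was ranked 4 in WT-n (4677 FPKM) and 93 in WT-m (1456 FPKM), with both mutants masked at 0. The 3 early nodulin-like genes, AT5G63240, AT2G34700 and PRXR1 were all among the 33 highest genes of both values.

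Small cysteine-rich and inhibitor proteins formed a further group. The defensin-like genes LCR39 (1847 and 5546 FPKM), AT1G77525 (1676 and 4023 FPKM) and AT1G47540 (1353 and 4528 FPKM) were among the 39 highest genes of both values. The cystatin gene AT5G47550, whose family inhibits cysteine proteases, was at 1879 and 4908 FPKM, and AT2G38870, of the potato inhibitor I family of serine protease inhibitors, at 1352 and 3132 FPKM. Metallothionein MT1A was at 4772 and 2614 FPKM. Over all 260 genes annotated as defensin-like, 67 were at 1 FPKM or more in both values and 143 under 1 FPKM in both, and their sum was 3.87% of nuclear FPKM in WT-n and 4.51% in WT-m. Of that WT-n sum, LCR69 alone gave 19996 FPKM, whereas WT-m lists it at 0 as masked.

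Lipid transfer proteins, small secreted carriers of lipids, gave the highest values of all. AT5G38160 was at 86983 FPKM and AT5G38170 at 27767 FPKM in WT-n, and WT-m lists both at 0 as masked for too many fragments. They are neighbours of AT5G38180 (1407 FPKM in WT-n and 11546 in WT-m), AT5G38195 (630 and 2223 FPKM) and AT5G38197 (90.9 and 681 FPKM). The genes lie on the plus strand of chromosome 5 of TAIR10.1, AT5G38160 at 15225767 to 15226208, AT5G38170 at 15227638 to 15228081 and AT5G38180 at 15229810 to 15230243. They are separate transcripts of 442, 444 and 434 bp with 51.9% to 76.0% identity between any 2 of these 3, and no stretch of 40 bases occurs in more than 1 of the 3. AT5G38160, AT5G38170 and LCR69 together held 16.9% of nuclear FPKM in WT-n; these 3 genes and the neighbours AT5G38195 and AT5G38197 were chosen after their values were seen. The family of 133 genes had 33 at 1 FPKM or more in both values, led by AT5G55410 at 3100 and 5956 FPKM.

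Seed regulators of the B3 domain class, such as LEC2 and FUS3, bind the RY element, whose core is CATGCA. These regulators were present in both WT values, FUS3 at 123 and 94.9 FPKM, LEC2 at 21.6 and 23.0 FPKM, and LEC1, their CCAAT-binding partner, at 207 and 509 FPKM. The 200 bases before the annotated start of each gene, read from TAIR10.1, were searched on both strands for CATGCA, for the G-box core CACGTG and for the prolamin box TGTAAAG. The RY core occurred in 9 of the windows of the 24 protein-coding genes among the 25 named above, or 37.5%, and in 6.69% of the windows of all 27442 nuclear protein-coding genes. CACGTG occurred in 2 of the 24 (8.33%) against 5.64% of all windows, and TGTAAAG in 0 of the 24 against 3.57%. By the worse of the 2 ranks, CATGCA was in 16% of the windows of the 100 highest protein-coding genes, 8% of the next 400, 6.2% of the next 1500, 4.83% of the next 3000 and 4.8% of the next 5000, but also in 8.51% of genes under 1 FPKM in both values. A match is a description of letters and not a bound site.

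The windows of 3 neighbouring lipid transfer protein genes and 2 early nodulin-like genes are shown because all 5 hold the core, in capitals on whichever strand it was found. They lie at chr5:15225567-15225766 (AT5G38160, plus strand), chr5:15227438-15227637 (AT5G38170, plus), chr5:15229610-15229809 (AT5G38180, plus), chr4:14033841-14034040 (ENODL3, minus) and chr4:15679653-15679852 (ENODL4, minus).
AT5G38160: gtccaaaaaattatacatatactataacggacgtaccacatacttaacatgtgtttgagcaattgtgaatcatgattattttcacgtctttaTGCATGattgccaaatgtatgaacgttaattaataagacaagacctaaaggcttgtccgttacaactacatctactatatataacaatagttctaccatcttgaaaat
AT5G38170: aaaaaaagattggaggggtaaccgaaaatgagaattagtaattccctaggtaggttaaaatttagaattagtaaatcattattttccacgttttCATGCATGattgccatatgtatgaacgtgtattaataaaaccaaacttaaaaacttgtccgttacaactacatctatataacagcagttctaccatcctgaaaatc
AT5G38180: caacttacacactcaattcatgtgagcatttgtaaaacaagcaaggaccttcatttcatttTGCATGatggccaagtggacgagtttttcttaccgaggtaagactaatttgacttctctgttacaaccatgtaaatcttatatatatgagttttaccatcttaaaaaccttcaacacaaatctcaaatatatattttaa
ENODL3: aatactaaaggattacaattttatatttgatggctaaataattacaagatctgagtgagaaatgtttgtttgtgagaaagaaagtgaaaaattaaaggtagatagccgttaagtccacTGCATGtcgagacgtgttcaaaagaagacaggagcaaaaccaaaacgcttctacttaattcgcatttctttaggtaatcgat
ENODL4: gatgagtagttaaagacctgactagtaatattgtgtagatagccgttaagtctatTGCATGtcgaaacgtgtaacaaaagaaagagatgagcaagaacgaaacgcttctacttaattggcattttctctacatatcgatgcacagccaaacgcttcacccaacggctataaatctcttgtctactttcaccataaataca
In AT5G38170 the core occurs on both strands, where the 2 matches overlap. The windows of ENODL3 and ENODL4 share an 18-base stretch, GTAGATAGCCGTTAAGTC, upstream of the core, and those of AT5G38160 and AT5G38170 share 23 bases nearer the transcript start, CTTGTCCGTTACAACTACATCTA.

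Oil and carbon genes were high in both values. Oleosins coat the oil bodies of seeds: AT3G01570 was at 2590 FPKM in WT-n and 3405 in WT-m, and OLEO3 at 2061 and 2261. All 22 genes of fatty acid and oil synthesis were at 1 FPKM or more in both values, with ACP1 (acyl carrier protein) at 932 and 1850 FPKM, FAD2 (oleate desaturase) at 909 and 1256 FPKM, and KCS18 (FAE1, which elongates seed fatty acids) at 555 and 645 FPKM. The sugar exporter gene SWEET11 was at 1629 and 1134 FPKM, and the sucrose transporter gene SUC2 at 133 and 42.5 FPKM. The amino acid permease gene AAP1 was nearly even, at 116 and 127 FPKM. The vicilin-like gene AT4G36700 was even as well, at 1187 and 1224 FPKM.

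Hormone and regulatory genes stood out less by number than by level. GA20OX3, a 20-oxidase of gibberellin synthesis, was at 1461 and 2464 FPKM and ranked 34 and 43, and CYP88A3 (KAO1), an earlier step, was at 369 and 459 FPKM. Of 17 genes of gibberellin metabolism, 7 were under 1 FPKM in both values, and GA20OX1 and GA20OX2 reached 3.25 and 2.45 FPKM in WT-m and 1.01 and 1.0005 FPKM in WT-n. NF-YC2, a subunit of the CCAAT-binding nuclear factor Y, was at 1730 and 2425 FPKM, and NF-YB6 (LEC1-LIKE) at 696 and 761 FPKM. The cytokinesis syntaxin gene SYP111 (KNOLLE) was at 346 and 355 FPKM, and mitotic genes were present throughout: all 21 mitotic cyclin and kinase genes were at 1 FPKM or more in both values, the Aurora kinase gene AUR1 at 45.9 and 31.4 FPKM. Among the Polycomb repressive complex 2 genes, FIE was at 73.6 and 106 FPKM and MSI1 at 60.8 and 90.3 FPKM, while the seed-type subunit genes FIS2 (2.35 and 1.10 FPKM) and MEA (0.215 and 0.0388 FPKM) were low.

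Photosynthesis genes of the nucleus were abundant in both values. Their 45 genes held 2.47% of nuclear FPKM in WT-n and 3.76% in WT-m. PSBR, of photosystem II, was at 1597 and 7849 FPKM, CAB1, an antenna protein, at 1075 and 2801 FPKM, and THI1, of plastid thiazole synthesis, at 2002 and 2391 FPKM. RBCS1A was at 2042 FPKM in WT-n and is masked in WT-m. Elongation factor gene AT5G60390 (2744 and 3199 FPKM) and GAPC2 (930 and 1087 FPKM), used as housekeeping references, were even, with centred ratios of -0.10 and -0.10.

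For the difference between the WT values, a log2 ratio of WT-n over WT-m was formed after adding 1 FPKM to each value and after scaling WT-m so that the median of genes at 1 FPKM or more in both was 0, a shift of -0.12. Folds on this scale understate low genes. Over 18481 genes at 1 FPKM or more in either value, 339 (1.83%) were past 4-fold higher in WT-n and 1156 (6.26%) past 4-fold lower, while 12905 (69.8%) were within 2-fold. The SD of the ratio over genes was 1.28. Among the 16037 genes at 1 FPKM or more in both values, 1.53% were past 4-fold higher and 4.41% lower. Scaling to the nuclear total in place of the median moved the median over the 18481 genes from -0.04 to 0.31. It gave 529 higher and 801 lower genes, so that the share of higher genes among those past 4-fold went from 22.7% to 39.8%. The WT-n total includes AT5G38160, AT5G38170 and LCR69, which held 16.9% of it and are masked in WT-m. The 2 totals thus do not rest on the same genes, here and wherever this scaling is used below.

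**Figure D2:**
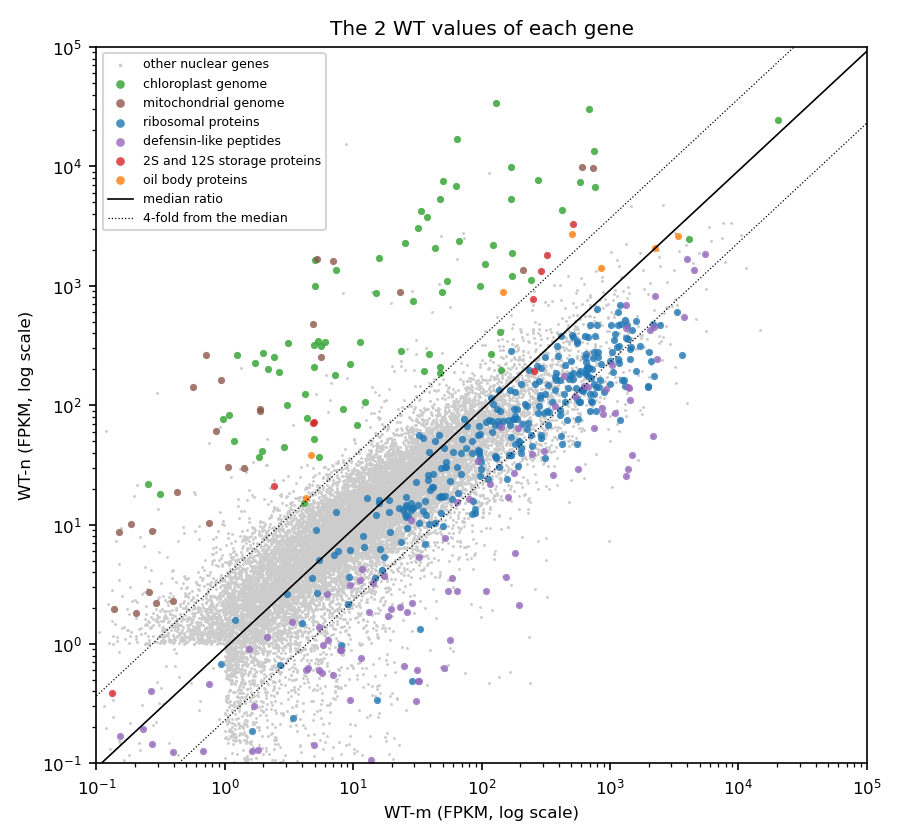
FPKM in WT-m (x axis) against WT-n (y axis), both on log axes, for genes at 0.1 FPKM or more in each; the solid line is the median ratio and the dotted lines lie 4-fold from it. Organelle genes and storage protein genes lie mostly above the line, and ribosomal protein and defensin-like genes mostly below it.

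The ratio rose with transcript length above 700 bp. The median ratio of nuclear genes was -0.99 for transcripts under 300 bp, where 9.66% were past 4-fold higher and 30.6% lower, -1.22 for 300 to 500 bp, -1.37 for 500 to 700 bp, -0.44 for 1000 to 1500 bp, 0.00079 for 1500 to 2000 bp, 0.77 for 3000 to 5000 bp and 1.44 above 5000 bp. Of the 692 genes of 500 to 700 bp, 31.5% were past 4-fold lower in WT-n, and of the 251 above 5000 bp, 13.5% were past 4-fold higher. Within each table a trend with length was present too: for protein-coding genes of 500 to 700 bp and above 5000 bp, the median ratio of WT-n over nrpd1-/- went from -0.49 to 0.56, and that of WT-m over mat nrpd1+/- from 0.92 to -1.05. For the 2 mutant columns against each other it went from -0.47 to 0.32. When the median of each of 20 equal bins of transcript length was taken off, the SD over 18338 nuclear genes went from 1.194 to 1.002. Of these genes 238 were past 4-fold higher and 1137 lower before, and 452 (2.46%) higher and 439 (2.39%) lower after. This second, length-centred ratio was added after seeing the data, and both are given below. What accompanies the trend with length was not tested.

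**Figure D3:**
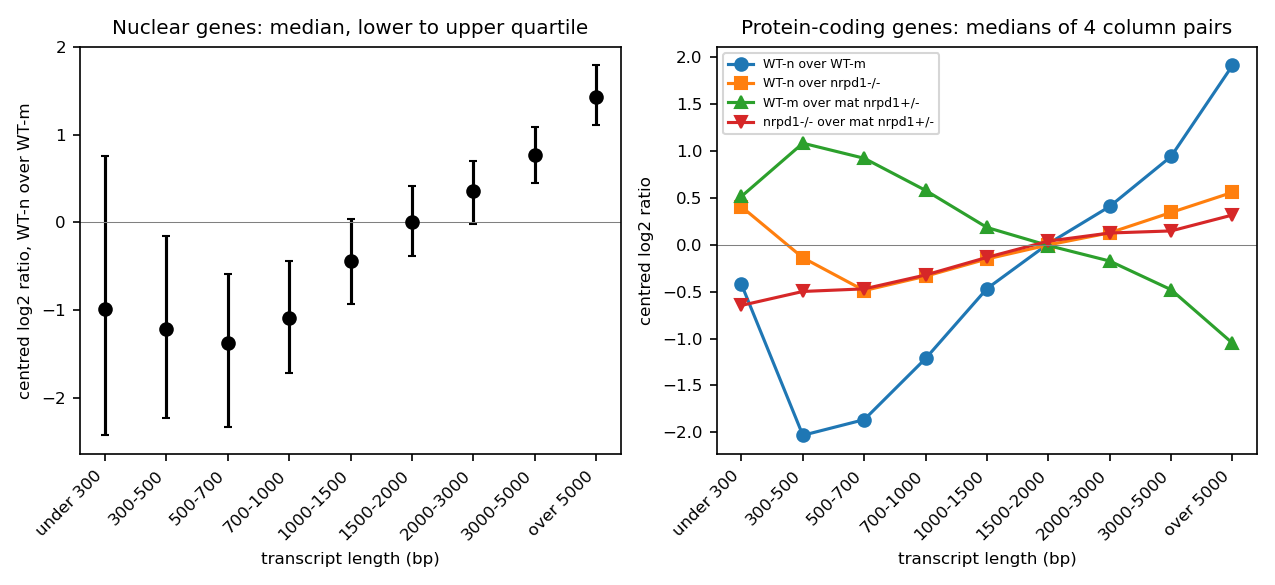
Left, the centred log2 ratio of WT-n over WT-m by transcript length for nuclear genes, with points for medians and bars from the lower to the upper quartile; right, the medians for protein-coding genes in 4 pairs of columns, each centred on its own median. The left medians run from -1.37 at 500 to 700 bp to 1.44 above 5000 bp, and the pair of WT values has the steepest course on the right.

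The lists of seed reserve genes had medians above 0, that is higher in WT-n, in both forms of the ratio, though not every member was higher. Of 8 storage protein genes compared, 6 were past 4-fold higher in WT-n and none lower, the median being 2.70, or 3.69 with length centring; all genes together had 1.83% higher and a median of -0.04. The 2S albumin gene SESA3 was at 3285 FPKM in WT-n and 514 in WT-m, SESA4 at 1827 and 325, SESA2 at 1320 and 291, and SESA5 at 72.1 and 4.96. The 12S globulin genes CRA1 (781 and 251 FPKM) and CRU3 (71.4 and 4.82 FPKM) lay in the same direction, and SESA1 was nearly even at 194 and 258 FPKM. Of 7 oil body genes, 3 were past 4-fold higher: OLEO1 at 2716 and 509 FPKM, OLEO4 at 892 and 148 FPKM, and ATS1 (AT4G26740, a caleosin) at 37.9 and 4.74 FPKM. The abundant oleosin genes AT3G01570 and OLEO3 were not higher, with ratios of -0.27 and -0.01. The 4 vicilin-like genes had a median of 2.21, with PAP85 at 31.6 and 2.08 FPKM. Their sums were close, at 1267 and 1238 FPKM, because the most abundant of them, AT4G36700, was even. Of 11 late embryogenesis abundant and dehydrin genes compared, 0 were past 4-fold and the median over the 9 at 1 FPKM or more in both values was 0.45, or 1.24 with length centring, for example LEA7 at 41.7 and 15.3 FPKM. The mutant columns of the same tables held higher sums than their WT. Storage protein genes summed to 7571 FPKM in WT-n and at least 19779 in nrpd1-/-, and to 1652 FPKM in WT-m and at least 6531 in mat nrpd1+/-, where 4 and 3 members are masked at 0 in the mutant.

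Protease and cell death genes lay in the same direction with fewer genes past 4-fold. All 12 genes of the list of vacuolar and cell death proteases had a ratio above 0, with a median of 0.82 (0.69 with length centring). In the list 1 gene was past 4-fold: BETA-VPE, a vacuolar processing enzyme that matures storage proteins in seeds, at 111 and 17.9 FPKM. ALPHA-VPE was at 566 and 170 FPKM, the KDEL protease gene CEP1 at 1022 and 409 FPKM, and the nuclease gene BFN1 at 62.3 and 18.2 FPKM. The 11 sucrose and starch genes had a median of 0.73, or 0.28 with length centring, and SUS2 (AT5G49190), the sucrose synthase of maturing seeds, was past 4-fold, at 275 and 49.0 FPKM. The maturation factor gene DPBF2 (bZIP67) was at 65.2 and 28.8 FPKM. Among protein-coding genes at 10 FPKM or more in both values, and chosen after their values were seen, the highest ratios were those of XTH24, a wall-modifying transglucosylase (214 and 20.2 FPKM, ratio 3.46), PER1, a seed peroxiredoxin (194 and 20.6 FPKM, 3.29), and AT1G62225 (267 and 30.9 FPKM, 3.19).

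**Figure D4:**
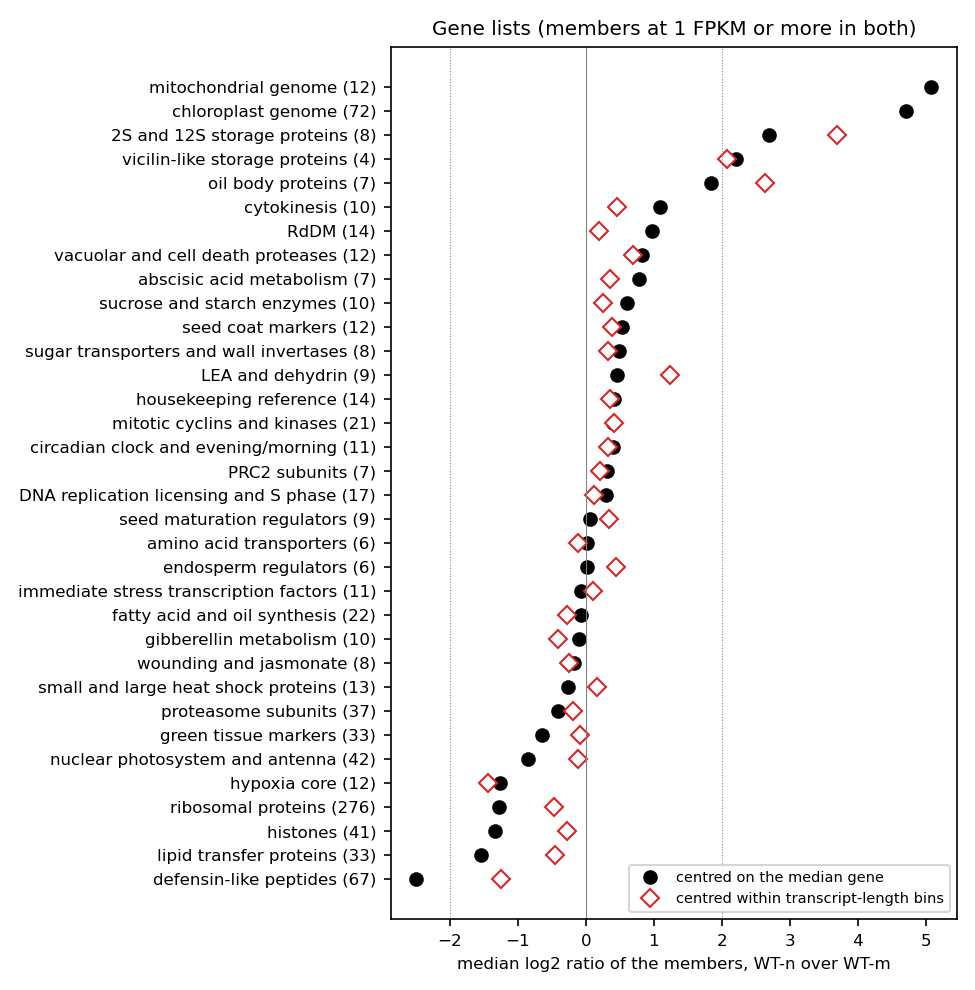
Median log2 ratio of WT-n over WT-m for each gene list with at least 4 members at 1 FPKM or more in both values (number in brackets), centred on the median gene (filled circles) or within transcript-length bins (open diamonds, nuclear genes only); dotted lines mark 4-fold. Storage and oil body lists lie to the right in both forms, hypoxia and defensin-like lists to the left in both, and ribosomal protein, histone and photosystem lists move towards 0 with length centring.

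Low-oxygen response genes were lower in WT-n in both forms. Of 12 hypoxia core genes compared, 11 had a ratio below 0 and 4 (33.3%) were past 4-fold lower, against 6.26% of all genes, with a median of -1.26, or -1.44 with length centring, where 3 were past 4-fold. AT4G24110 was at 9.49 FPKM in WT-n and 160 in WT-m, AT1G33055 at 90.3 and 1144 FPKM, AT4G10270 at 66.6 and 518 FPKM, and ADH1, the alcohol dehydrogenase of fermentation, at 92.8 and 328 FPKM. LBD41, another member, was even at 28.5 and 31.3 FPKM. In nrpd1-/- the sum of the list was 1639 FPKM against 497 in WT-n, and in mat nrpd1+/- it was 1560 FPKM against 2577 in WT-m. The evening clock gene ELF4 stood out among 13 clock genes compared, at 6.01 and 127 FPKM (ratio -4.07, or -2.71 with length centring), with GI at 18.0 and 6.82 FPKM and LHY at 6.37 and 1.49 FPKM on the other side. Of 13 seed coat markers compared, 8 had a ratio above 0 and the median was 0.45. Past 4-fold lower were 2 (15.4%), against 6.26% of all genes, among them LDOX, a flavonoid gene, at 8.44 and 44.5 FPKM. With length centring 0 of the seed coat markers were past 4-fold.

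Genes of short transcripts were lower in WT-n, and most of that difference went with length. Of 285 ribosomal protein genes compared, with a median transcript of 993 bp, 269 had a ratio below 0 and the median ratio was -1.32. Past 4-fold lower were 68 (23.9%), against 6.26% of all genes and 16.8% of all nuclear genes of 700 to 1000 bp. With length centring the median was -0.48 and 14 were past 4-fold. They summed to 35160 FPKM in WT-n and 120572 in WT-m, or 4.40% and 10.4% of nuclear FPKM. The WT-n total includes AT5G38160, AT5G38170 and LCR69, which held 16.9% of it and are masked in WT-m. RP1 (AT1G43170), a large-subunit protein, was at 641 and 796 FPKM, emb2171 at 605 and 3342 FPKM and AT3G56020, of the L41 family, at 75.1 and 1190 FPKM. Of 43 histone genes compared, with a median transcript of 839 bp, 12 (27.9%) were past 4-fold lower, against the same 16.8% for 700 to 1000 bp. Their median ratio went from -1.34 to -0.27 with length centring. The H4 gene AT3G53730 was at 16.2 and 230 FPKM, and the H2A variant gene HTA9 at 281 and 320 FPKM. The 44 nuclear photosystem and antenna genes had a median of -0.81, or -0.12 with length centring. Proteasome subunit genes, longer on the whole, had a median of -0.42 (-0.20). Scaled to the nuclear total their median was -0.0086, still below the 0.31 over all genes compared. Genes with long transcripts showed the reverse: the 10 cytokinesis genes had a median of 1.09, or 0.45 with length centring. The 15 genes listed for RNA-directed DNA methylation had 0.99, or 0.28. That list also counts the demethylase gene DME, which acts against methylation, at 20.4 and 4.36 FPKM. DME was its 1 member past 4-fold higher.

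Defensin-like genes were lower in WT-n in both forms of the ratio. Of the 116 compared, 49 reached 1 FPKM in WT-m alone and so could only be lower in WT-n. Of the 67 at 1 FPKM or more in both values, 43 (64.2%) were past 4-fold lower and 0 higher, with a median of -2.49. The share past 4-fold lower was 31.5% among all nuclear genes of 300 to 500 bp at that level. With length centring the median of the 67 was -1.25 and 17 were past 4-fold lower. Of the 12 lowest ratios among all genes at 10 FPKM or more in both values, 4 were defensin-like genes: AT2G17723 at 25.7 and 1327 FPKM, LCR73 at 29.0 and 1386 FPKM, AT2G12475 at 54.8 and 2159 FPKM, and LCR41 at 38.5 and 1479 FPKM. The others included AT5G22580, of the A/B barrel stress family, at 20.5 and 1040 FPKM, and the uncharacterized gene AT1G21395 at 34.7 and 1647 FPKM. In the mutants AT5G22580 was at 2.97 FPKM (nrpd1-/-) and 5.42 FPKM (mat nrpd1+/-), so WT-m was the high value of the 4 columns. Of 33 lipid transfer protein genes at 1 FPKM or more in both values, 9 (27.3%) were past 4-fold lower, such as LTP6 at 220 and 2084 FPKM, and 0 higher, against 35.5% and 16.6% lower among all nuclear genes of 500 to 700 and 700 to 1000 bp. With length centring 3 were lower and 1 higher, and the median went from -1.55 to -0.45. AT1G03103, at 48.3 and 0.750 FPKM, reached that level in WT-n alone.

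Genes of 20 FPKM or more in one value and under 1 in the other numbered 24 for WT-n and 156 for WT-m, of which 6 and 44 were nuclear protein-coding. The 5 highest in each direction were organelle genes and small nucleolar RNAs (snoRNAs), which guide the modification of ribosomal RNA. Of 218 snoRNA genes compared, 42 (19.3%) were past 4-fold higher and 112 (51.4%) past 4-fold lower in WT-n, against 9.66% and 30.6% of all nuclear genes under 300 bp. That comparison set itself includes snoRNA genes, whose median transcript was 94 bp, so the 2 shares are not independent of them. The annotated transcripts of 4 very short genes are shown because their levels are among the highest or most different of the nuclear genome. AT3G55566 (chr3:20608742-20608840, plus strand) and AT2G01667 (chr2:295455-295556, plus) are annotated as protein-coding, with start and stop codon in capitals. AT2G08765 (chr2:15029575-15029654, minus) and AT2G35382 (chr2:14894380-14894455, minus) are snoRNAs. The letters TGATGA, as in box C, and CTGA, as in box D, are in capitals wherever they occur on the transcribed strand. A match of letters is not a placed box: TGATGA in AT2G08765 lies nearer the 3' end. The snoRNAs AT1G09467 and AT2G07615, not shown, hold no TGATGA.
AT3G55566: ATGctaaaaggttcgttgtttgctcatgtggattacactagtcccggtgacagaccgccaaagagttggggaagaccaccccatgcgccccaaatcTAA
AT2G01667: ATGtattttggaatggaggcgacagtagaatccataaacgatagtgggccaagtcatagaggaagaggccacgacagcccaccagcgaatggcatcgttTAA
AT2G08765: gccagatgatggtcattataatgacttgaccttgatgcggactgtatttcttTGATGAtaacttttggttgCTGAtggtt
AT2G35382: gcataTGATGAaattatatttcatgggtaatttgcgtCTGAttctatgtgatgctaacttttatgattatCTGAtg
AT3G55566, of 99 bp, was ranked 6 in WT-n (3345 FPKM) and 4 in WT-m (8740 FPKM), with 432 and 1752 FPKM in the mutants. AT2G01667, of 102 bp, was at 428 FPKM in WT-n and 14882 in WT-m. AT2G08765, of 80 bp, was at 8729 FPKM in WT-n and 114 in WT-m. AT2G35382, of 76 bp, was listed at 0 in WT-n and stood at 2136 FPKM in WT-m. The snoRNA AT1G09467, of 68 bp, was likewise at 0 in WT-n, with 534 FPKM in WT-m. A 0 in WT-n at a gene this short was not read as absence of expression. Because FPKM is divided by length, a read adds far more to the value of such a gene than to that of a long one.

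Organelle transcripts differed most. Chloroplast genes made up 23.1% of all FPKM in WT-n and 4.02% in WT-m, and mitochondrial genes 2.51% and 0.134%. Of 72 chloroplast genes at 1 FPKM or more in both values, 66 (91.7%) were past 4-fold higher in WT-n and 0 lower, with a median of 4.71, while 7 more reached that level in WT-n alone and 19 in WT-m alone. Only 12 mitochondrial genes were at 1 FPKM or more in both, all 12 past 4-fold higher in WT-n, and 33 reached it in WT-n alone. Chloroplast identifiers were named by matching coordinates. Of the 12 highest ratios among all genes at 10 FPKM or more in both values, 10 were chloroplast genes, led by a serine tRNA gene (ATCG00290, 34229 and 130 FPKM) and petL of the cytochrome b6f complex (ATCG00590, 16818 and 64.7 FPKM). Longer genes lay in the same direction, psaA of photosystem I (ATCG00350, 2253 bp) being at 3063 and 32.0 FPKM. Other chloroplast genes did not: psbM (ATCG00220) was at 24456 and 20403 FPKM and rpl32 (ATCG01020) at 2458 and 4101 FPKM. The histidine tRNA gene trnH (ATCG00010, 73 bp) was listed at 0 in WT-n with 4908 FPKM in WT-m. Further short tRNA genes were at 0 in WT-n, such as ATCG00390 (73 bp, 7285 FPKM in WT-m) and trnC (71 bp, 408 FPKM). Serine tRNA genes of 87 to 92 bp were at 7562 to 34229 FPKM in WT-n. Whether these 0 values go with transcript length was not tested. In the mutant columns psaA was at 1196 FPKM (nrpd1-/-) and 359 FPKM (mat nrpd1+/-). The libraries were made by priming on poly(A), which organelle transcripts mostly lack.

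Functions with medians near 0 and no gene past 4-fold in the main ratio included fatty acid and oil synthesis (median -0.08 over 22 genes, 0 past 4-fold), amino acid transport (-0.01 over 7), seed maturation regulators (0.04 over 10), endosperm regulators (0.01 over 6), Polycomb repressive complex 2 (0.31 over 7), DNA replication (0.30 over 17), mitotic cyclins and kinases (0.40 over 21) and housekeeping references (0.41 over 14). With scaling to the nuclear total these medians became, in the same order, 0.34, 0.38, 0.42, 0.43, 0.69, 0.56, 0.76 and 0.82. The median over all genes compared was then 0.31. In the main ratio stress lists were near even as well. Immediate stress transcription factors had a median of -0.07 over 11 genes, wounding and jasmonate genes -0.32 over 10, and heat shock genes -0.34 over 16. Of the heat shock genes, HSP17.6A (0.323 and 6.55 FPKM) was past 4-fold lower in WT-n. Heat shock genes summed to 302 FPKM in WT-n and 318 in WT-m, against 279 in nrpd1-/- and 1873 in mat nrpd1+/-.

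Set beside the mutants within each table, mitotic cyclins and kinases summed to 0.0500% of nuclear FPKM in WT-n and 0.0176% in nrpd1-/-, and to 0.0304% in WT-m and 0.0215% in mat nrpd1+/-. Endosperm regulators summed to 0.244% and 0.0948%, and to 0.275% and 0.133%, which rested on ICE1 and AT1G50650: the other 7 summed to 0.0237% and 0.0118%, and to 0.0137% and 0.0157%. Oil body genes ran the other way, at 1.22% in WT-n and at least 2.96% in nrpd1-/-, where OLEO1 is masked at 0, and at 0.618% in WT-m and 2.82% in mat nrpd1+/-. Each of these holds 1 pooled value a column, over that column's own total without its masked genes, and was not tested.

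**Figure D5:**
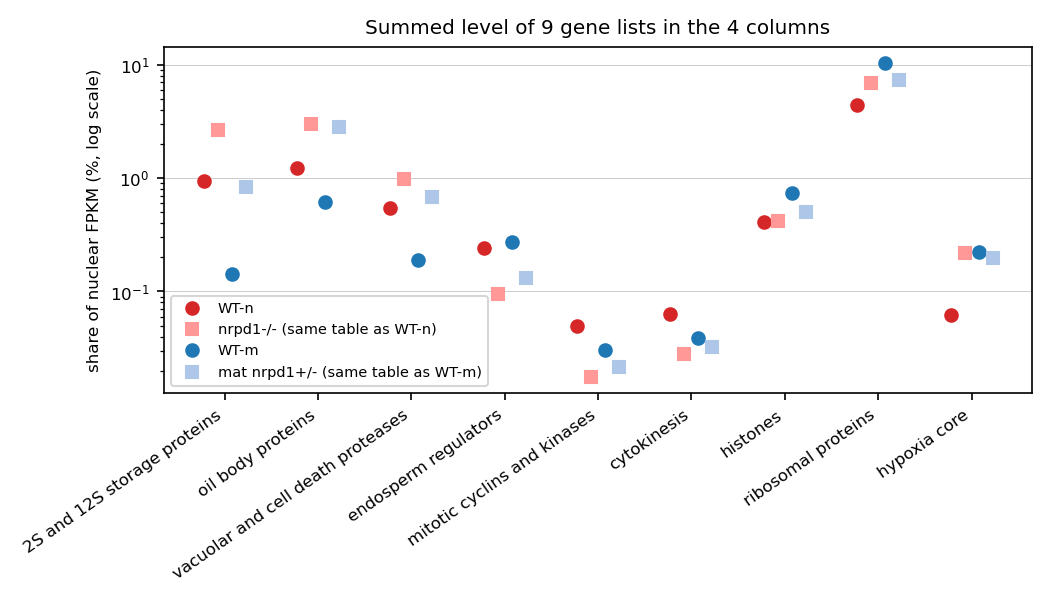
Summed FPKM of 9 gene lists as a percentage of all nuclear FPKM (log axis) in the 4 columns of both tables, with circles for WT and squares for the mutants. Each column's total lacks its own masked genes. Oil body genes lie at 1.22% in WT-n and 0.618% in WT-m, under both mutants, and ribosomal protein genes at 4.40% in WT-n and 10.4% in WT-m.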

How the data were processed

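Per the labels, RNA of hand-dissected endosperm was made into poly(A)-primed mRNA-seq libraries. The authors trimmed the reads with Trim Galore, aligned them to TAIR10 with TopHat and obtained FPKM with Cuffdiff (2.2.1 in the submitters' processing notes), and the deposited FPKM are 1 pooled value per genotype and table, scaled within each table. Log2 fold change, test statistic, p-value, q-value and a significance flag of the authors' own comparisons stand beside them and were not used, nor was 1 further value column. Read counts are not in these tables; depth was read from steps in the lowest values.

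The 2 WT values were joined on gene identifier. Symbols, transcript lengths and sequences are those of RefSeq TAIR10.1, in which all 37044 nuclear identifiers were found; 74.6% of nuclear loci had the same start and end there. Ratios used a pseudocount of 1 FPKM, a minimum of 1 FPKM in either value and centring on the median gene. The 8 genes masked at 0 in a WT value were left out. Gene lists were trimmed on annotation only. The members and lists were chosen with earlier results of these data known. Named genes are the 25 nuclear genes with the best worst rank, the 12 highest and 12 lowest ratios at 10 FPKM or more in both values, the 5 highest in each direction at 20 FPKM or more in one value and under 1 in the other, and in each list up to 4 members with the highest lower value, 2 with the largest ratio and the most even; any other gene named was chosen after its values were seen. The code was tested on simulated data. Python 3.11.15, numpy 2.4.6, pandas 2.3.3, matplotlib 3.10.9 and Biopython 1.88 were used.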

Additional observations from a re-analysis of the deposited data

How the results depend on the processing

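Each WT value is 1 pooled number, so leaving out replicates was not possible and every count below describes these 2 values. No paired analysis was possible because the columns carry no replicate number. Which libraries entered WT-m is not stated. Length centring, nuclear genes alone, protein-coding genes alone and leaving out genes with the status for too many fragments or a failed estimate were chosen after seeing the data.

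Against 339 genes past 4-fold higher and 1156 lower in WT-n, a pseudocount of 0.1 gave 697 and 1850, a pseudocount of 5 gave 180 and 696, 2-fold gave 2076 and 3500, 8-fold 156 and 442, and nuclear genes of at least 500 bp 147 and 676. Scaling to the nuclear total gave 529 higher genes, protein-coding nuclear genes alone 157 higher, and length centring 439 lower. Nuclear genes alone gave 238 and 1137, which length centring took to 452 and 439. The mitochondrial median of 2.98 over the 45 genes compared ranged from 1.43 with a pseudocount of 5 to 5.51 over genes at 1 FPKM or more in both values. The 500 highest genes were shared to 59.4%, against 37% of the 100 highest. Lists with at least 25% of their compared members past the fold in one direction numbered 9, or 25 at 2-fold, 5 at 8-fold and 5 with length centring. The type I MADS-box median, over 3 genes, turned from -1.10 to 0.15 with length centring. Of 428 list medians over all settings, 417 moved by less than the spread between members, 10 moved further, and this was the 1 reversal among medians at least 2-fold from 0. Other settings kept these counts within 1.5 times: all remaining scalings, the filters on low values, the regions of residual Col-0 sequence left out, and the WT value of the pat nrpd1+/- table.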
